A study of Mus musculus with 6 samples.

Results

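The Slc2a genes encode the GLUT proteins, the carriers that let glucose, fructose and related small molecules cross cell membranes down their gradients. The account below covers 10 of them in epididymal white adipose tissue (eWAT), Slc2a1, Slc2a3, Slc2a4, Slc2a5, Slc2a6, Slc2a8, Slc2a9, Slc2a10, Slc2a12 and Slc2a13, which were taken by gene name from the 54532 genes in the count table. RNA sequencing compared eWAT of 3 control mice with eWAT of 3 cachectic mice, and all mice were C57BL/6. By the study's methods, mice were males of 6 to 10 weeks, cachexia was induced by inoculating LLC cells, a Lewis lung carcinoma line, under the skin, mice that had lost more than 20% of body weight were taken as cachectic, and tissue was harvested after 3 weeks. What the control mice received is not given in the sources used here.

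Each sample, taken as 1 mouse, gave 1 library, with total counts of 18766846, 18475204 and 18855546 in control mice and 17278966, 15711022 and 14928766 in cachectic mice, so every cachectic library was smaller than every control library. The label eWAT was checked against 12 adipocyte markers, all of which were detected and tested. Their summed level was 30849 ± 3742 normalised reads (CPM, counts scaled to a common library size; SD, n = 3) in control mice and 40196 ± 8970.5 CPM (SD, n = 3) in cachectic mice, and the most abundant was Cfd, which encodes the adipokine adipsin. The library of control replicate 1 stood apart in the genes of developing sperm: 7 such markers summed to 43.5 CPM there, against 4.73 to 9.11 CPM in the other 5 libraries. The members' values without that library are given beside Slc2a1, Slc2a3, Slc2a4, Slc2a10 and Slc2a12. In bulk tissue, fewer cells of a type and less RNA per cell cannot be told apart.

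In fat, glucose enters through a constant route, carried mainly by GLUT1 (Slc2a1), and through an insulin-controlled route, carried by GLUT4 (Slc2a4). GLUT4 is held in vesicles inside the adipocyte, and insulin, acting through its receptor, PI3-kinase and AKT, sends those vesicles to the surface. Other members carry other cargo: GLUT5 (Slc2a5) carries fructose, GLUT9 (Slc2a9) carries urate, GLUT10 (Slc2a10) has been linked to vitamin C transport, and HMIT (Slc2a13) carries myo-inositol together with protons.

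Of the 10 members, Slc2a13 and Slc2a5 fell in cachectic eWAT, and their promoters are shown because the promoters of members that moved the same way can then be set side by side. Sequences are from RefSeq, with the build GRCm38.p6, and run 5′ to 3′ on the gene's strand; they start 250 bases before the RefSeq start site and stop before the gene's start in the count table. Capitals mark GGGCGG, the core of the GC box, or its complement CCGCCC. The Slc2a13 stretch is chr15:91573262-91573511 on the minus strand, 250 bases with 2 matches. The Slc2a5 stretch is chr4:150119094-150119282 on the plus strand, 189 bases with 3 matches.
Slc2a13: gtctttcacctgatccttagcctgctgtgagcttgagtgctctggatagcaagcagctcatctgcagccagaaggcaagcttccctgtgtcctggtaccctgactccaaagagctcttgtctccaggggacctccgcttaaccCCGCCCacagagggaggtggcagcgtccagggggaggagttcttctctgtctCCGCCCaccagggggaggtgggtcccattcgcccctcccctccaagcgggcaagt
Slc2a5: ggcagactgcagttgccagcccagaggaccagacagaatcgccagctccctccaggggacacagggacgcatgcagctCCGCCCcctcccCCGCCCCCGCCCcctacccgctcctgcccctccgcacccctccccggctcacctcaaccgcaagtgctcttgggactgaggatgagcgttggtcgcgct

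A promoter of 250 bases was at hand for 8 members, and Slc2a3 and Slc2a4 had none. The window of Slc2a9, chr5:38483386-38483635, lies inside the gene as counted and not before its start. Of the 8, 5 held GGGCGG on either strand, against 32.7% of 32851 mouse promoters of that length. Those 5 windows were 58.0 to 66.4% G or C and the others 48.8 to 52.8%, against a mean of 53.2% over all promoters. The comparison of GGGCGG takes no account of this. ACGTG, the core of the hypoxia response element, was in 1 of the 8, Slc2a1, against 16.6% of promoters. CACGTG, the E box, which contains ACGTG, was in 0 of the 8, against 6.02% of promoters. These matches are a description of the letters in the window.

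All 10 members passed the filter on low counts, and edgeR's quasi-likelihood test called 1 of them higher and 2 lower in cachectic mice at a Benjamini-Hochberg adjusted p under 0.05 over 16003 tested genes. Slc2a3 was higher, Slc2a5 and Slc2a13 were lower, and the other 7 were not called. Slc2a5 passed the filter only through the control mice, so its direction was not free of the filter. Over all tested genes, 1440 were called higher, which is 9.0%, and 1381 were called lower, which is 8.63%, or 17.6% in either direction. Without control replicate 2 the counts over all genes were 600 higher and 712 lower, and without control replicate 3 they were 382 and 446. The values of the groups did not overlap for 4 members, 1 higher and 3 lower, and for 20.4% of all tested genes on the higher side and 20.1% on the lower side, or 40.5% in all. The median log2 fold change of the members was -0.28 and that of all tested genes was 0, where the quartiles were -0.39 and 0.36.

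**Figure D1:**
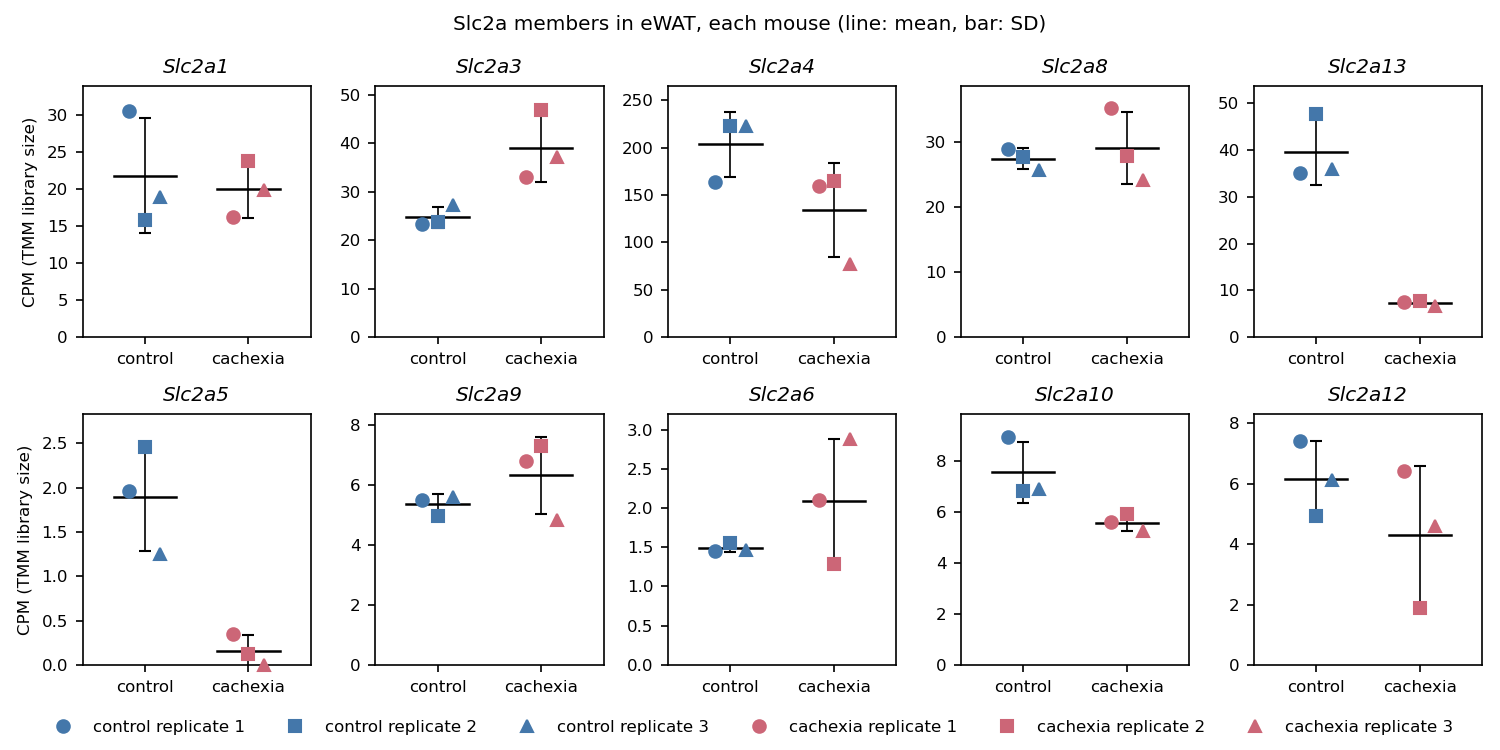
Normalised level of each of the 10 Slc2a members in each mouse, in CPM on TMM library sizes, with separate linear axes that start at 0; points are mice, horizontal lines are group means and bars are 1 SD, cut at 0 for Slc2a5. The 3 cachectic mice sit between 6.69 and 7.80 CPM for Slc2a13, far below the control mice at 35.2 to 47.7 CPM, and between 33.1 and 46.8 CPM for Slc2a3, above the control mice at 23.4 to 27.3 CPM.

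Of the 3 called members, Slc2a13 had the smallest p-value. Slc2a13 (ENSMUSG00000036298; chr15:91267696-91573261, minus strand, in the coordinates of GRCm38) encodes HMIT, the proton-coupled myo-inositol carrier. Its levels were 35.2, 47.7 and 35.9 CPM in the control mice and 7.52, 7.80 and 6.69 CPM in the cachectic mice. The cachectic mice lay close together and every control mouse was well above them. The mean fell 5.39-fold, from 39.6 ± 7.05 to 7.34 ± 0.579 CPM (SD, n = 3 each), a log2 fold change of -2.43 (standard error 0.18, edgeR adjusted p = 0.000878). By p-value it was the 14th of the 16003 tested genes.

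Depth was ample for Slc2a13, with 633 to 833 reads in each control library and 102 to 129 in each cachectic library. Its call held under all 17 other settings, with log2 fold changes between -2.51 and -1.60. Gm24647, Gm15383 and Gm15381 lie within its borders, but none shares an exon base with it in GENCODE M21 and none had more than 2 reads in a library. In an exact permutation test over the 6 mice, which cannot go below 0.10 with 3 against 3, p was 0.10.

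Other genes of myo-inositol supply were measured beside it. Of 9, 7 were tested and 1 was called, and their median log2 fold change was -0.35. The gene called was Itpk1, lower in cachectic mice, an inositol phosphate kinase, at 45.8 ± 2.12 CPM in control and 31.4 ± 4.23 CPM in cachectic mice (SD, n = 3; log2 fold change -0.54, edgeR adjusted p = 0.0318), a call that was lost on leaving out any sample but cachexia replicate 2 (adjusted p 0.0636 to 0.128). Slc5a3, the sodium-coupled myo-inositol carrier, was named after its values were seen because it brings in the same cargo by another mechanism. Its levels were 54.1, 128 and 104 CPM in control mice and 48.5, 31.5 and 65.3 CPM in cachectic mice. Those groups overlapped, and Slc5a3 was not called (log2 fold change -0.98, edgeR adjusted p = 0.0940).

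Slc2a5 (ENSMUSG00000028976; chr4:150119283-150144169, plus strand), the fructose carrier, was scarce in control eWAT and close to absent from the counts of cachectic eWAT. There were 39, 43 and 22 reads in the control libraries and 6, 2 and 0 reads in the cachectic libraries, or 104 against 8 in all. Each cachectic library lay below each control library. Levels were 1.89 ± 0.612 and 0.158 ± 0.178 CPM (SD, n = 3), a log2 fold change of -3.49 with a 95% interval from -5.27 to -1.71 (edgeR adjusted p = 0.0214). The 0 in cachexia replicate 3 allows up to 3 reads, or 0.201 CPM, counting error alone considered. The gene passed the filter only through the control mice, whose values lay above the 0.560 CPM that 10 reads are worth in a library of median size. Its direction was thus not free of the filter. The call was lost without control replicate 2 (edgeR adjusted p = 0.0716), control replicate 3 (0.0569) or cachexia replicate 2 (0.0699). The log2 fold changes there were -3.25, -3.72 and -3.33. It was -4.76 without cachexia replicate 1 and -2.95 without cachexia replicate 3, both still called.

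Slc2a3 (ENSMUSG00000003153; chr6:122727809-122801640, minus strand) was the member that rose. It encodes GLUT3, a high-affinity glucose carrier best known from neurons and also used by leukocytes and platelets. Its levels were 23.4, 23.7 and 27.3 CPM in control mice and 33.1, 46.8 and 37.2 CPM in cachectic mice. The lowest cachectic mouse was above the highest control mouse. The means were 24.8 ± 2.13 and 39.1 ± 7.01 CPM (SD, n = 3), a 1.57-fold rise with a 95% interval from 1.21 to 2.04 (log2 fold change 0.65, edgeR adjusted p = 0.0307). The exact permutation p was 0.10, the smallest possible.

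The Slc2a3 call held without cachexia replicate 1 (edgeR adjusted p = 0.0342) or cachexia replicate 3 (0.0489). It was lost without control replicate 1 (edgeR adjusted p = 0.0772), control replicate 2 (0.106), control replicate 3 (0.084) or cachexia replicate 2 (0.0684), while the log2 fold change stayed between 0.51 and 0.76. It was also lost with limma on log2 FPKM, at a pseudocount of 1 (limma adjusted p = 0.0572) or 0.1 (0.053). A block for replicate number in the edgeR fit ended the call too (log2 fold change 0.64, edgeR adjusted p = 0.0587). The processed pseudogene Gm4482 lies inside Slc2a3 on the same strand and shares 0 of its exon bases, with 56 to 120 reads in a library.

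Markers of blood and vessel cells were read beside Slc2a3, against the 9.0% of all tested genes called higher and the 8.63% called lower, and no list was tested against other genes. Of 12 neutrophil markers, 10 were tested and 9 were called higher, led in abundance by S100a9. Of those called, S100a9, Cxcr2, Retnlg, Mmp8 and Ltf passed the filter only through the cachectic mice. Each had a control value below 0.560 CPM, so its direction was not free of the filter. All 12 markers summed to 33.5, 50.4 and 34.7 CPM in control mice and 287, 262 and 716 CPM in cachectic mice. Ly6g, a defining marker, was at 0 in the control libraries and at 0.491 ± 0.112 CPM in the cachectic ones (SD, n = 3). The sums of the neutrophil and erythroid lists were far higher in each cachectic mouse. Of 7 erythroid markers, led by Hbb-bs, 6 were tested and all 6 were called higher. The 7 summed to 451, 252 and 275 CPM in control and 2856, 1334 and 2557 CPM in cachectic mice. Among them Slc4a1 passed the filter only through the cachectic mice. Of 9 endothelial markers, led by Pecam1, 3 were called, all higher, with sums of 1633, 1545 and 1477 CPM in control and 2632, 3320.1 and 2029 CPM in cachectic mice. Platelet markers differed in sign among themselves, with 4 of 6 tested and a median log2 fold change of 1.18. The most abundant, Pf4, was called lower and set the sums of 57.0 ± 2.11 and 40.0 ± 9.14 CPM (SD, n = 3), whereas the scarcer Ppbp, Itga2b and Gp1ba, named after their values were seen, had log2 fold changes of 1.58, 1.11 and 1.25 and were not called (edgeR adjusted p = 0.0513, 0.0626 and 0.167). Ppbp and Gp1ba each had a control value below 0.560 CPM and passed the filter only through the cachectic mice. Their direction, and the platelet median, were thus not free of the filter. The groups overlapped in the sums of lymphocyte and macrophage markers. T, B and NK cell markers summed to 16.6 ± 5.57 and 8.48 ± 3.21 CPM, and macrophage markers to 1408 ± 177 and 1262 ± 279 CPM (SD, n = 3), control first. The part of these cells in the Slc2a3 difference was not tested.

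Slc2a4 (ENSMUSG00000018566; chr11:69942539-69948188, minus strand), which encodes GLUT4, was the most abundant member in every mouse. Its levels were 164, 223 and 223 CPM in control mice and 159.9, 165 and 76.9 CPM in cachectic mice. Control replicates 2 and 3 were above all cachectic mice, cachexia replicate 2 was just above control replicate 1, so the groups overlapped, and cachexia replicate 3 was far below all others. The cachectic mean was 65.9% of the control mean (134 ± 49.4 against 203 ± 34.1 CPM, SD, n = 3), a log2 fold change of -0.60 with a 95% interval from -1.27 to 0.07, and Slc2a4 was not called (edgeR adjusted p = 0.187). The interval thus reaches from a fall to 0.414 of the control level to a rise to 1.05 of it. The log2 fold change was -0.74 without control replicate 1 (edgeR adjusted p = 0.161) and -0.32 without cachexia replicate 3 (edgeR adjusted p = 0.263), and under no setting run was Slc2a4 called.

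Slc2a4 is made mainly by adipocytes in this tissue, so its level was set beside the 12 adipocyte markers in each mouse. The median log2 CPM of the markers was 10.46, 10.62 and 10.80 in control mice and 11.03, 10.32 and 10.83 in cachectic mice, with no gap between groups (difference 0.10, exact permutation p = 0.700). Relative to those markers, Slc2a4 stood at -3.10, -2.82 and -3.00 on the log2 scale in control mice and at -3.70, -2.95 and -4.56 in cachectic mice. Cachexia replicates 1 and 3 were below every control mouse, and cachexia replicate 2 was among them (difference -0.76, exact permutation p = 0.300). The markers did not move as 1 group: Pck1, Pnpla2 and Cidec were called higher, Lep was called lower and the other 8 were not called. Over all tested genes, 9.0% were called higher and 8.63% lower. Of 17 alternatives, Cidec lost its call under 10, Lep under 6, Pnpla2 under 4 and Pck1 under 1.

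**Figure D2:**
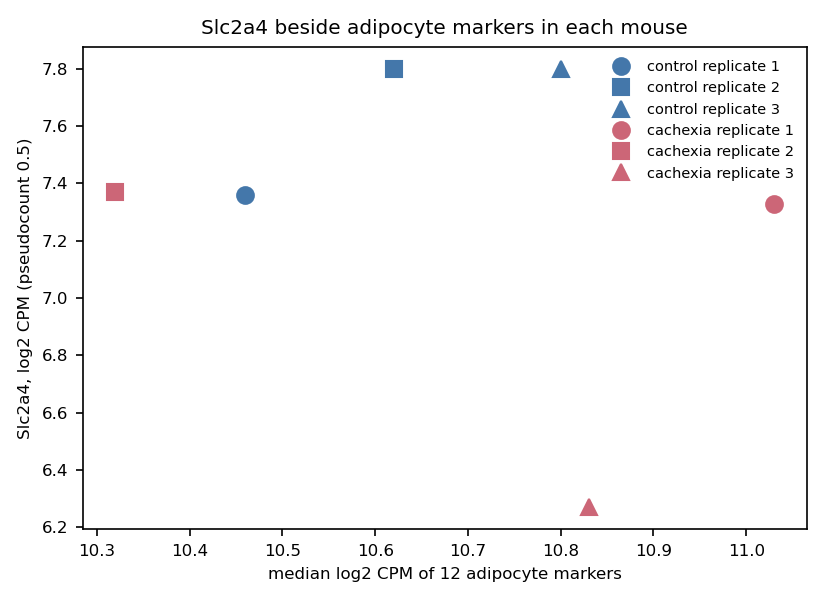
Slc2a4 against adipocyte markers, with 1 point per mouse; the x axis is the median log2 CPM of 12 adipocyte markers and the y axis the log2 CPM of Slc2a4, each after adding 0.5. Cachexia replicate 3 sits at 6.27 on the y axis although its marker level, 10.83, is close to that of control replicate 3 at 10.80.

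Slc2a1 (ENSMUSG00000028645; chr4:119108711-119137983, plus strand), which encodes GLUT1, gave no called difference. Its levels were 30.6, 15.9 and 18.9 CPM in control mice and 16.2, 23.8 and 19.9 CPM in cachectic mice. The highest value belonged to control replicate 1, the library with the sperm-cell transcripts, and the groups overlapped. The log2 fold change was -0.13 (standard error 0.26, edgeR adjusted p = 0.764), and it was 0.19 without control replicate 1 (edgeR adjusted p = 0.577). The 95% interval with all mice ran from 0.597-fold to 1.39-fold. The antisense gene Gm12868 covers 2.99% of its exon bases and had at most 2 reads in a library.

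The remaining members carry other cargo or work inside the cell. Slc2a8 (GLUT8, an intracellular hexose carrier) was the steadiest of the abundant members in control mice. Its levels were 29.0, 27.7 and 25.7 CPM in control and 35.2, 27.9 and 24.2 CPM in cachectic mice (log2 fold change 0.08, edgeR adjusted p = 0.767). The cachectic mice lay on both sides of the control mice, and without cachexia replicate 1 the log2 fold change was -0.08. Slc2a9, the urate carrier, had 5.52, 4.99 and 5.61 CPM in control and 6.82, 7.31 and 4.85 CPM in cachectic mice (log2 fold change 0.24, edgeR adjusted p = 0.549). Cachexia replicates 1 and 2 were above all control mice and cachexia replicate 3 was below them, and the log2 fold change ran from 0.12 without cachexia replicate 2 to 0.40 without cachexia replicate 3.

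Slc2a10, whose loss in people causes a disorder of winding arteries, was lower in each cachectic mouse than in each control mouse. Its levels were 8.93, 6.82 and 6.91 CPM in control and 5.60, 5.90 and 5.24 CPM in cachectic mice. The difference did not pass the test (log2 fold change -0.44, 95% interval -0.96 to 0.09, edgeR adjusted p = 0.215), and the log2 fold change was -0.30 without control replicate 1 (edgeR adjusted p = 0.406). Slc2a12 (GLUT12, a glucose carrier) had 7.43, 4.93 and 6.12 CPM in control and 6.42, 1.90 and 4.59 CPM in cachectic mice (log2 fold change -0.52, edgeR adjusted p = 0.435). Its log2 fold change was -0.36 without control replicate 1, -0.93 without cachexia replicate 1 and -0.16 without cachexia replicate 2. It is an uncertain member, because Tbpl1 on the other strand shares 407 bases, 9.61% of its exon length, and strand-aware counting is not stated. Slc2a6 (GLUT6) had the lowest mean FPKM in control mice, within the range of Slc2a5, and had 1.45, 1.55 and 1.47 CPM in control and 2.10, 1.29 and 2.88 CPM in cachectic mice (log2 fold change 0.48, edgeR adjusted p = 0.421, and 0.19 without cachexia replicate 3 to 0.74 without cachexia replicate 2).

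The rest of the family in the count table is Slc2a2 and Slc2a7. Slc2a2, the GLUT2 of liver and pancreatic islets, had 18, 15 and 19 reads in the control libraries and 12, 1 and 12 in the cachectic libraries. It was not called (log2 fold change -0.87, edgeR adjusted p = 0.408). Its log2 fold change was -0.34 without cachexia replicate 2 and -1.28 without cachexia replicate 3. Slc2a7 had 0 reads in all 6 libraries.

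**Figure D3:**
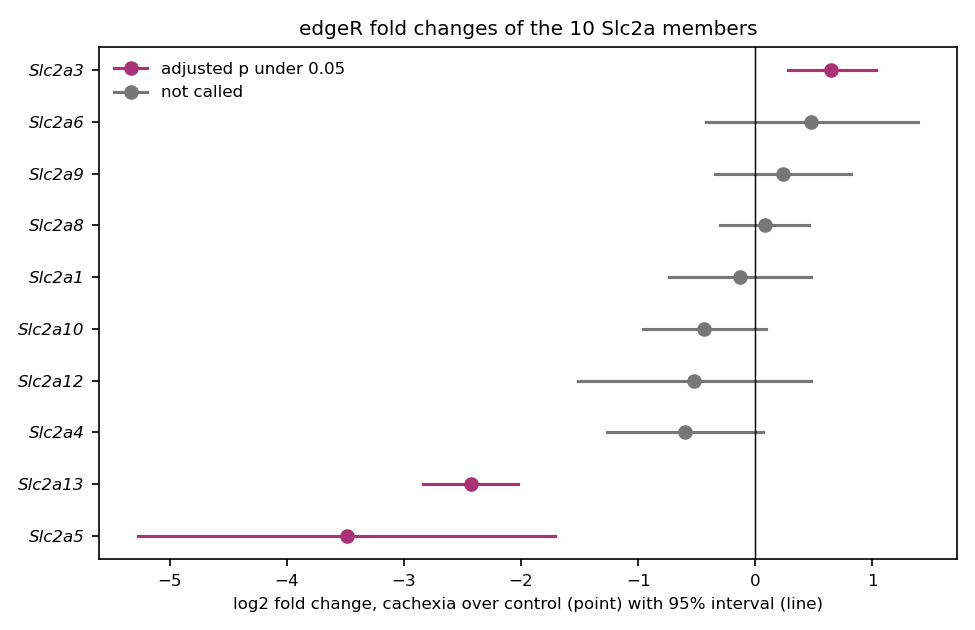
log2 fold changes of the 10 members, cachectic over control mice (3 each), from edgeR; points are estimates, lines are 95% intervals, and colour marks an adjusted p under 0.05. The intervals of Slc2a3, Slc2a13 and Slc2a5 lie clear of 0, and those of the other 7 cross it.

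To compare members with each other, levels were taken per length from the deposited FPKM, in which the count is divided by gene length and library depth. In control mice the order of the mean FPKM levels was Slc2a4 (57.7 ± 9.58, SD, n = 3), Slc2a8 (8.46), Slc2a1 (6.15), Slc2a13 (4.67), Slc2a3 (3.38), Slc2a10 (2.09), Slc2a12 (1.44), Slc2a9 (1.04), Slc2a5 (0.548) and Slc2a6 (0.459). The ranges over mice overlapped between Slc2a8 and Slc2a1, Slc2a1 and Slc2a13, and Slc2a5 and Slc2a6, so these neighbours did not differ beyond their spread. In cachectic mice Slc2a4 again led, at 37.6 ± 13.9 FPKM (SD, n = 3), followed by Slc2a8 (8.86), Slc2a1 (5.55), Slc2a3 (5.27), Slc2a10 (1.53), Slc2a9 (1.22), Slc2a12 (0.993), Slc2a13 (0.857), Slc2a6 (0.636) and Slc2a5 (0.0454). There the ranges of Slc2a1 and Slc2a3 overlapped, and so did those of each pair of neighbours from Slc2a9 down to Slc2a6. Slc2a13 moved from above Slc2a3 in control mice to below Slc2a12 in cachectic mice.

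Summed over the 10 members, the per-length level was 77.9, 90.1 and 89.8 FPKM in control mice and 70.8, 72.4 and 44.6 FPKM in cachectic mice. Every cachectic sum was below every control sum (85.9 ± 6.96 against 62.6 ± 15.6 FPKM, SD, n = 3; exact permutation p = 0.10, the smallest possible). Cachexia replicate 3, at 44.6 FPKM, lay well below the other cachectic mice and widened the gap between the means. Without Slc2a4 the sums were 31.3, 27.0 and 26.4 FPKM in control and 25.7, 26.2 and 23.0 FPKM in cachectic mice (28.2 ± 2.63 against 25.0 ± 1.73 FPKM, SD, n = 3). Control replicate 1 stood above the other control mice, which were close to cachexia replicates 1 and 2.

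Slc2a4 made up 59.9, 70.0 and 70.5% of the sum in control mice and 63.7, 63.9 and 48.4% in cachectic mice, which overlap (difference -8.15 percentage points, exact permutation p = 0.300, adjusted over the 10 shares 0.429). The difference was -3.04 percentage points without cachexia replicate 3. The share of Slc2a3 was 4.11, 3.58 and 4.14% in control and 6.33, 8.70 and 11.3% in cachectic mice, and that of Slc2a13 was 5.35, 6.24 and 4.72% against 1.25, 1.26 and 1.75%. The Slc2a8 share was 9.93 ± 1.40% against 14.5 ± 2.49% (SD, n = 3). Shares of Slc2a3, Slc2a8 and Slc2a9 were higher, and those of Slc2a5 and Slc2a13 lower, in every cachectic mouse than in every control mouse. Each had an exact permutation p of 0.10 (0.200 adjusted over the 10 shares). A share also depends on the sum, which was lower in cachectic mice, and the levels of Slc2a8 and Slc2a9 themselves overlapped between groups. The ratio of Slc2a3 to Slc2a1 in FPKM was 0.370, 0.721 and 0.697 in control mice and 0.992, 0.953 and 0.907 in cachectic mice, so GLUT3 transcripts came close to GLUT1 transcripts in each cachectic mouse. The lowest ratio was that of control replicate 1, where Slc2a1 was highest.

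**Figure D4:**
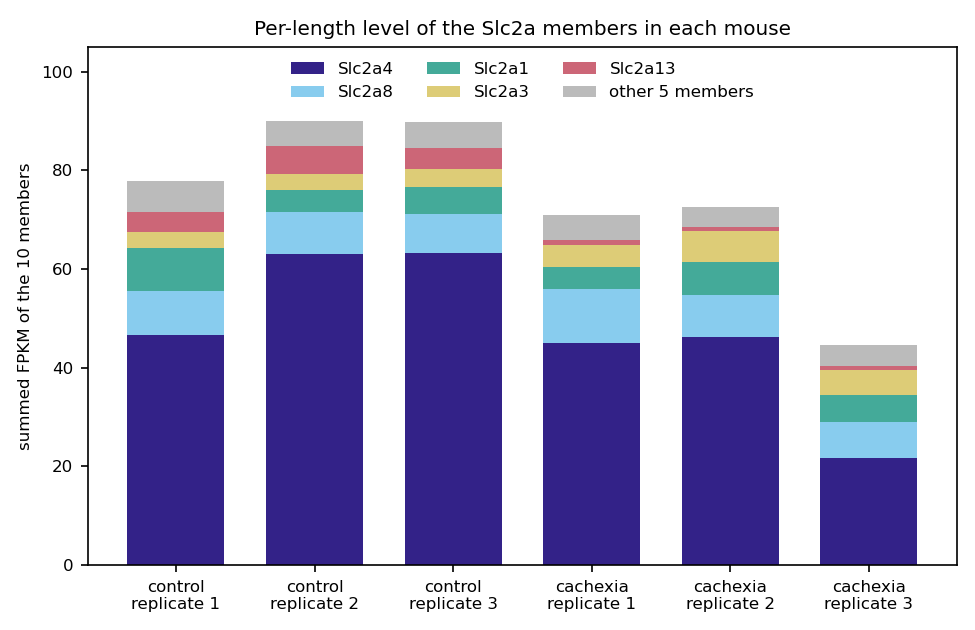
Stacked per-length level of the 10 members in each mouse, in FPKM on an axis that starts at 0; colours separate the 5 most abundant members, and grey is the sum of the other 5. Slc2a4 fills 48.4 to 70.5% of each bar, and the bar of cachexia replicate 3 is the lowest, at 44.6 FPKM.

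The genes that surround sugar carriage were taken from 8 lists written by hand, with 106 genes tested, of which 11 were called higher and 9 lower in cachectic mice. These shares are close to the 9.0% called higher and 8.63% called lower over all tested genes, so the lists together were not set apart by their calls. The same background stands behind the counts of the single lists, none of which was tested against other genes. These totals also depend on single libraries: they were 4 and 4 without control replicate 2, 2 and 4 without control replicate 3, 7 and 9 without control replicate 1, and 6 and 7 without cachexia replicate 1.

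In the insulin signal that releases GLUT4, 22 genes were tested, 5 were called higher and 3 lower, beside 17.6% of all tested genes called in either direction, and the median log2 fold change was 0.03. Insr, the insulin receptor, rose from 135, 203 and 212 CPM to 399, 446 and 409.7 CPM (log2 fold change 1.19, edgeR adjusted p = 0.00868). Pik3r1, the regulatory subunit of PI3-kinase, fell from 743, 636 and 835 CPM to 189, 220.0 and 136 CPM (log2 fold change -2.02, edgeR adjusted p = 0.00250). Both groups of 3 mice were far apart in each case. Among adaptors that bind the receptor and can restrain it, Grb10 was higher (log2 fold change 0.82, edgeR adjusted p = 0.0137) and Grb14 was lower, at 31.7, 19.8 and 24.1 against 3.62, 1.29 and 3.87 CPM (log2 fold change -3.11, edgeR adjusted p = 0.00356). The other called genes, Irs2, Trip10 and Trib3 (higher) and Rab10 (lower), were named after their values were seen, as were Akt2 and Tbc1d4, the kinase and its GLUT4-vesicle substrate. Akt2 was at 314 ± 34.9 and 329 ± 48.1 CPM and Tbc1d4 at 96.1 ± 23.4 and 115 ± 20.6 CPM (SD, n = 3), and neither was called. Grb10 lost its call without control replicate 3 (edgeR adjusted p = 0.0773), and Irs2 without control replicate 1 (0.0518), control replicate 3 (0.0957), cachexia replicate 1 (0.0573) or cachexia replicate 3 (0.0603). Rab10 lost it without any sample but control replicate 1, and Trip10 and Trib3 without any but cachexia replicate 3 (edgeR adjusted p 0.0501 to 0.184).

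Of 20 genes of GLUT4 vesicles and their fusion, 1 was called, and the median log2 fold change was -0.23. The gene called was Vamp3, a vesicle SNARE, which was lower, at 125 ± 10.4 CPM in control and 90.3 ± 5.35 CPM in cachectic mice (SD, n = 3; log2 fold change -0.47, edgeR adjusted p = 0.0375), a call lost on leaving out any sample but control replicate 1 (0.0651 to 0.153). Of 9 genes that govern how GLUT proteins are taken back into the cell, 1 was called higher, 1 lower, and the median was 0.10. Txnip, whose protein drives the uptake of GLUT1 and GLUT4 from the surface, rose from 717, 1226 and 1024 CPM to 3655, 3795 and 3689 CPM (log2 fold change 1.91, edgeR adjusted p = 0.00398). The cachectic mice were nearly alike in Txnip and all above the control mice. Cav1, the coat protein of caveolae, fell from 3153, 3463 and 3967 CPM to 1248, 685 and 989 CPM (log2 fold change -1.86, edgeR adjusted p = 0.00556).

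Of 19 transcription factors known to act on Slc2a genes, 2 were called higher and 1 lower, with a median log2 fold change of 0.05. Epas1 (HIF-2 alpha) and its partner Arnt, of the hypoxia response, were higher, by log2 fold changes of 0.71 (edgeR adjusted p = 0.0483) and 0.64 (edgeR adjusted p = 0.0371). Hif1a, of the same response and named after its values were seen, was not called (log2 fold change -0.15, edgeR adjusted p = 0.505). Srebf1, the lipogenic factor that insulin induces, was lower, at 565 ± 45.7 CPM in control and 164 ± 91.7 CPM in cachectic mice (SD, n = 3; log2 fold change -1.79, edgeR adjusted p = 0.0188). Epas1 lost its call on leaving out any sample (edgeR adjusted p 0.0509 to 0.137), Arnt on leaving out any but cachexia replicate 2 (0.0581 to 0.104), and Srebf1 without control replicate 2 (0.0559), control replicate 3 (0.0675) or cachexia replicate 1 (0.0621).

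Once inside, glucose is trapped by hexokinases. Of 16 genes of sugar phosphorylation and fructose use, 15 were tested and 2 were called, both lower, and the median log2 fold change was -0.32. Hk2, the hexokinase of insulin-responsive tissues, fell from 108, 119.7 and 130.4 CPM to 43.9, 60.4 and 52.1 CPM (log2 fold change -1.19, edgeR adjusted p = 0.00374). Akr1b3, the aldose reductase that starts the path from glucose to fructose, was lower as well (log2 fold change -0.63, edgeR adjusted p = 0.0259), a call lost without control replicate 2 (0.0918), control replicate 3 (0.107) or cachexia replicate 2 (0.0632). Khk, the fructose kinase, was named after its values were seen, as the enzyme next to GLUT5. It had 24.8, 10.9 and 12.7 CPM in control and 25.4, 25.1 and 15.9 CPM in cachectic mice and was not called, with control replicate 1 far above the other control mice.

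Of 16 sugar carriers outside the family, 9 were tested and 1 was called, higher, with a median of -0.03. The gene called was Slc50a1, the mammalian SWEET protein (log2 fold change 0.47, edgeR adjusted p = 0.0357, and 0.0581 to 0.159 without any sample but control replicate 1), and Slc5a4a and Slc45a1 were at 0 in all libraries. Of 11 genes of urate and ascorbate handling, 5 were tested and 2 were called, both higher, with a median of 0.55. The urate exporters Abcg2 and Abcc4 were the ones that rose, Abcg2 from 43.8 ± 9.78 to 101 ± 36.6 CPM (SD, n = 3; edgeR adjusted p = 0.0226) and Abcc4 from 20.1 ± 0.333 to 44.2 ± 17.4 CPM (SD, n = 3; edgeR adjusted p = 0.0248). Abcg2 lost its call without control replicate 2 (edgeR adjusted p = 0.0825) or control replicate 3 (0.0940), and Abcc4 without control replicate 1 (0.0590), control replicate 2 (0.0773) or control replicate 3 (0.0931). Slc22a6, a renal urate carrier, was at 0 in all libraries.

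**Figure D5:**
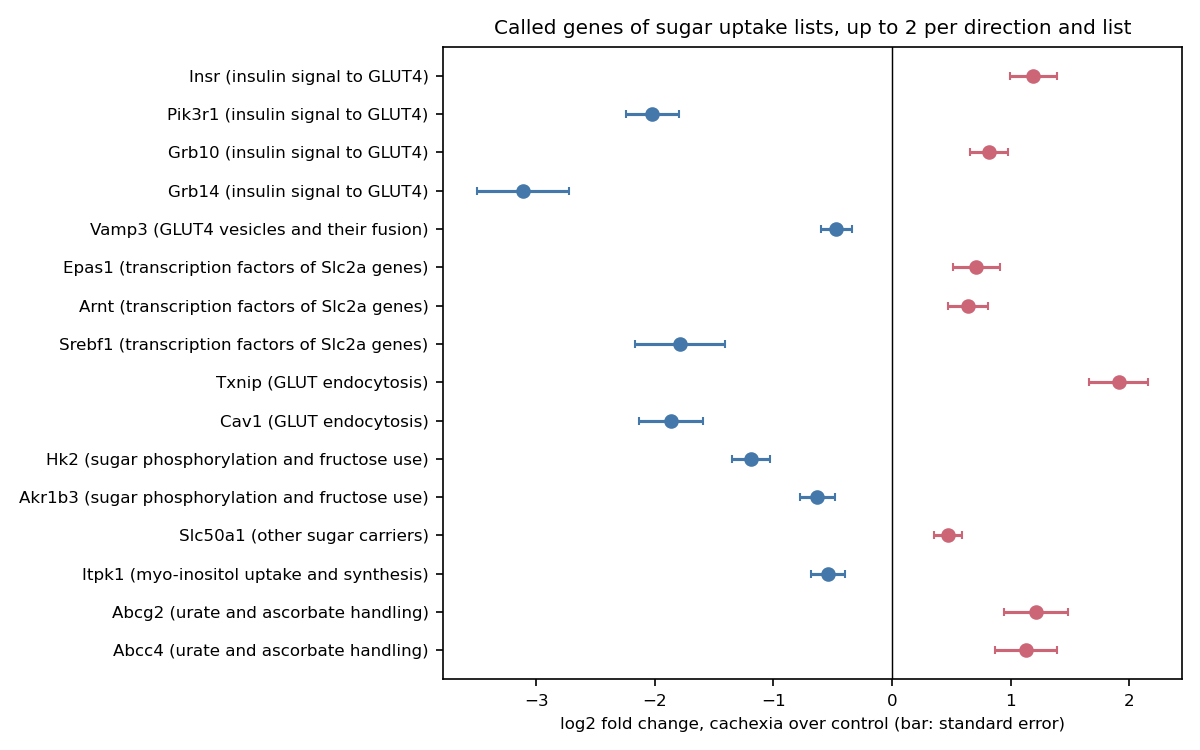
log2 fold changes, cachectic over control mice (3 each), of up to 2 called genes per direction from each of the 8 lists around sugar carriage; points are edgeR estimates, bars are 1 standard error, red is higher and blue is lower in cachectic mice. Grb14 lies farthest to the left at -3.11 and Txnip farthest to the right at 1.91.

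Lists of other cells of the fat pad were read beside Slc2a13 and Slc2a5, with 17.6% of all tested genes called in either direction as their background. Of 9 progenitor markers, 1 was called higher (Ly6a) and 4 lower, and they summed to 3388, 3157 and 3214 CPM in control and 3005, 2673 and 2245 CPM in cachectic mice, with Dcn as the most abundant. Dcn made up most of that sum and was not called (log2 fold change -0.06), whereas those called lower, Col1a1, Dlk1, Pi16 and Thy1, had log2 fold changes of -2.61, -2.33, -1.72 and -1.35, beside -2.43 for Slc2a13. Ly6a was at 0.97. Pdgfra, Cd34 and Dpp4, named after their values were seen, were at -0.75, -0.03 and -0.12 and were not called, so the list did not move as 1 group. Dlk1 passed the filter only through the control mice, so its direction was not free of the filter. Of 6 markers of pericytes and smooth muscle, 1 was called, Rgs5, their most abundant, which was lower, and they summed to 1233, 953 and 925 CPM against 756, 728 and 471 CPM. Both sums were lower in each cachectic mouse than in each control mouse. No marker of these lists was at 0 in all libraries, and the part of these cells in the differences was not tested. With all libraries thinned to the smallest total, the log2 fold changes were -2.41 for Slc2a13, -3.27 for Slc2a5 and 0.65 for Slc2a3, each still called.

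For the main glucose carriers of fat, the protein-coding genes most like them over the 6 mice were found by Pearson's r of log2 CPM among 13723 genes. For Slc2a4 these were Rnf10 (r = 0.9966), Idh3a (r = 0.9934) and Abcb10 (r = 0.9930). Idh3a, a subunit of the mitochondrial isocitrate dehydrogenase, had 199, 283 and 257 CPM in control and 203, 193 and 102 CPM in cachectic mice, with cachexia replicate 3 lowest, as for Slc2a4. For Slc2a1 they were Cyp46a1 (r = 0.9844), Rundc3a (r = 0.9842) and Trmt12 (r = 0.9802), each of which was highest in control replicate 1. With 6 points that share library and depth, and so many genes compared, these values are a description.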

How the data were processed

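RNA from eWAT of 3 control and 3 cachectic mice was sequenced with paired-end reads on the NovaSeq platform. After filtering reads by quality, the authors used Hisat2 for alignment and featureCounts 1.5.0-p3 for counting, and the raw count of each gene was deposited. The deposited FPKM values were calculated by the authors from count and gene length, and carry a further factor of 0.932 to 1.06 per library. The submitters' processing notes name the build mm9, but 98.3% of the gene IDs shared with GENCODE M21 have its GRCm38 coordinates. A table of the authors' own DESeq2 1.16.1 fold changes and p-values was not used, nor were its 6 columns of values per sample.

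Counts were fitted with edgeR 4.0.16 (TMM factors, filterByExpr, quasi-likelihood test, common biological coefficient of variation 0.264) over 16003 genes, with Benjamini-Hochberg adjustment and a threshold of 0.05. CPM use TMM library sizes, and 95% intervals use edgeR's degrees of freedom. Permutation tests of gene levels used mean log2(CPM + 0.5), and those of shares and summed levels used percentages and FPKM. All were two-sided and exact, and can reach no lower than 0.10. Samples are called mice here, but the labels do not state that each came from a separate animal, so p-values measure the spread between these 6 samples, which may be technical. No 2 libraries of the same group agreed within sampling noise.

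All Slc2a rows were named whatever their value, as were the 2 genes with the smallest p in each direction among those called in each list, and the most abundant marker. The members, gene lists and marker lists were chosen with earlier results of these data known. Alternatives were RLE factors, library totals, other filters, thinning, DESeq2 1.42.0, limma 3.58.1 on counts and on FPKM (pseudocount 1 or 0.1), a replicate block, protein-coding genes alone, and leaving out each library. R 4.3.3 and Python 3.11.15 were used.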

Additional observations from a re-analysis of the deposited data

How the results depend on the processing

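Slc2a13 was called lower under all 17 alternatives and Slc2a4 under none (log2 fold change -0.77 to -0.32, adjusted p 0.131 to 0.377 over the tools run). Slc2a3 lost its call under 7 of 17 and Slc2a5 under 3 of 16. A filter of at least 10 counts in every sample removed Slc2a5, which left 1 member called lower. The sign turned for Slc2a1 (0.19 without control replicate 1, and -0.31 to 0.19 over the mice left out) and Slc2a8 (-0.08 without cachexia replicate 1, and -0.08 to 0.20), and the cause was not tested. With limma on log2 FPKM, at pseudocount 1 or 0.1, 0 members were called higher. Leaving out each mouse gave 382 to 1197 genes called higher and 446 to 1142 lower over all genes, 0 to 1 members higher and 1 to 2 lower, 2 to 8 genes of the 8 lists higher and 4 to 9 lower, and a Slc2a4 share difference between -11.6 and -3.04 percentage points. DESeq2 called 17 list genes higher and 13 lower, and 1955 genes higher and 1929 lower over all. Insr, Pik3r1, Grb14, Txnip, Cav1 and Hk2 were called under all 17 alternatives, whereas of the other called genes of the 8 lists Rab10 lost its call under 9, Trip10, Trib3, Epas1 and Slc50a1 under 8 each, Vamp3 and Itpk1 under 7, Arnt under 6, Irs2 and Akr1b3 under 4, Srebf1, Abcg2 and Abcc4 under 3 and Grb10 under 1. Among the called markers, Cidec lost its call under 10 alternatives, Pf4 under 8, Cdh5 under 7, Lep, Mmp9 and Ltf under 6, Elane, Pi16, Mrc1 and Cd163 under 5, Pnpla2, Egfl7, Rgs5 and Mertk under 4, Dlk1, Pecam1 and Hba-a2 under 2, Pck1 and Ly6a under 1, and the others under none of those that could be run. The log2 CPM difference of Slc2a5 was -3.16 with a pseudocount of 0.1 and -1.31 with 1, so its size depends on the pseudocount at such low counts.

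Replicate numbers are shared between groups. The deviations of same-numbered mice correlated at -0.003, -0.011 and 0.008, and those of differently numbered mice at -0.024 to 0.023. No pairing by number showed in these values, but they cannot exclude one, and the labels state none. With a replicate block, 913 genes were called higher and 968 lower over all, 0 members higher, and 5 list genes higher and 5 lower. Under the block Slc2a3 had an adjusted p of 0.0587, and Slc2a5 and Slc2a13 stayed called.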

Other observations

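The remaining lists of cell markers give the makeup of the tissue in which the Slc2a genes were read. The background for all counts of markers below is the 17.6% of tested genes called in either direction. Of 8 macrophage markers, 2 were called higher (Cd163 and Mertk) and 1 lower (Mrc1), and Lyz2 was the most abundant. Of 6 mesothelial markers, led by Upk3b, edgeR, DESeq2 and limma-voom each called 0, and 1 was lower at an unadjusted edgeR p under 0.05. T, B and NK cell markers, 8 of 9 tested and led by Nkg7, had 0 called by each of the 3 tools and 3 lower at an unadjusted edgeR p under 0.05. Of 8 genes of brown or beige adipocytes, 5 were tested and 1, Dio2, was called lower. Dio2 passed the filter only through the control mice, so its direction was not free of the filter. It was at 1.53 ± 0.547 CPM in control and 0.0618 ± 0.00363 CPM in cachectic mice (SD, n = 3). Over all mice Ppara was the most abundant, but in cachectic mice the mean of Cox8b was above it, at 14.0 ± 18.0 against 11.4 ± 13.3 CPM (SD, n = 3). Cachexia replicate 2 dominated both means: the cachectic mice had 5.37, 34.7 and 2.03 CPM of Cox8b and 6.01, 26.5 and 1.57 CPM of Ppara. Zic1 was at 0 in all libraries.

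Signs of neighbouring tissue were low. Skeletal muscle markers, 3 of 8 tested and led by Acta1, summed to 35.0 ± 8.37 CPM in control and 25.2 ± 29.2 CPM in cachectic mice (SD, n = 3), with Myh4 at 0, 0 called by each of the 3 tools and 1 lower at an unadjusted edgeR p under 0.05. Epididymis markers, led by Adam7, summed to at most 4.26 CPM, in control replicate 1, and 0 of 7 passed the filter. Of 7 sperm-cell markers, 2 passed and 0 were called by each of the 3 tools or at an unadjusted edgeR p under 0.05. Sycp3 was the most abundant over all mice, but in control replicate 1 it was at 3.66 CPM, below Prm2 at 16.3 and Prm1 at 10.5 CPM.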
